A study of Homo sapiens with 2 samples.

Results

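The genes described here encode the parts of desmosomes, tight junctions and gap junctions, measured as mRNA in SAS cells and in eSAS cells. SAS is an established cell line from a human squamous cell carcinoma of the tongue, grown in DMEM with fetal bovine serum. eSAS is the population that was kept after 5 rounds in which large SAS spheroids were trapped on the removable filter of a tool named Spheroid Catch. The protocol of the tool includes picking a single cell to found a line, and the sources used here do not say whether the eSAS RNA came from such a clone. RNA of both was taken from cells in log growth, labelled with Cy3 and hybridised to 1 array each on the same slide, so the comparison asks how junction gene expression differed between the selected and the parental cells. With 1 array per population there is no replicate culture, no test of the difference can be made, and every fold below compares these 2 RNA samples.

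Members were all array probes whose gene name began with DSG, DSC, PKP, CLDN, GJA, GJB or TJP and a number, together with DSP, JUP, PERP, CDSN, PPL, EVPL, OCLN, F11R, CGN and CXADR. These were 60 genes with 81 probes, out of 30484 gene names and 41000 probes on the array. Desmosomes had 17 genes, tight junctions 27 and gap junctions 16. The gene names are those of the array, and some connexins have other symbols now (GJA7 is GJC1, GJA9 is GJD2 and GJA10 is GJA9).

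Desmosomes are spots of strong adhesion between epithelial cells, in which the cadherins of neighbouring cells bind outside and armadillo proteins and plakins tie them to keratin filaments inside. Tight junctions seal the space between cells near their apical side, with claudins setting what may pass and plaque proteins linking them to actin. Gap junctions are clusters of connexin channels that let ions and small molecules pass from cell to cell. Stratified squamous epithelium, the tissue from which this tumour line came, is known for its many desmosomes.

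The value given for a probe is its processed signal, a linear intensity from the scanner software that is already corrected for background. The ratio is the log2 of eSAS over SAS after each signal was divided by the 75th percentile of its array, which was 1242 for SAS and 1196 for eSAS. Levels of different probes cannot be compared, so signals are set side by side only within a probe. Sums over marker lists are the exception and are given before scaling. A probe was taken as measured when the software marked its signal as well above background on both arrays, which held for 52 of the 81 probes and gave a ratio for 36 genes. A further 6 genes were well above background on 1 array only, 17 genes on neither, and the PERP probe was set apart because its SAS spot was marked as non-uniform. No member spot was saturated. Spots of probes printed several times on the array gave the technical error of a ratio, an SD of 0.0748 on the log2 scale over 211 such probes. This SD was 0.224 for signals under 50, 0.101 from 50 to 500, 0.0419 from 500 to 5000 and 0.0456 above 5000, and covers spot-to-spot error within the 2 arrays only. The error model of the scanner software was wider, at 0.20 to 0.34 per member ratio.

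Both arrays carried the signals of an epithelial line. All 10 epithelial markers listed were measured on both arrays, with a median log2 ratio of -0.43 and 3 of them above 0. Those 3 were KRT18 (0.16), KRT8 (0.12) and EPCAM (0.04), which like KRT19 are not particular to squamous epithelium. The keratins KRT5, KRT14, KRT17 and KRT6A and the factor TP63 were all below 0. KRT17 had a ratio of -0.55, CDH1 -0.48, KRT6A -0.46 (46.9 in SAS, 32.7 in eSAS), TP63 -0.40 and KRT19 -0.05. KRT5 had a ratio of -0.63, and KRT14, the keratin of basal cells, had -6.58 on 1 probe (8749 in SAS, 88.3 in eSAS) and -1.23 on the other (3136 in SAS, 1286 in eSAS). The summed signals of the list, before scaling, were 639694 in SAS and 637745 in eSAS. Most of that came from the bright probes of KRT8, KRT18 and KRT19, so the sums do not show the markers that were lower. Of 11 markers of leukocytes, endothelium, fibroblasts, liver and glia, 7 were well above background on neither array, among them PTPRC, PECAM1 and PDGFRA. Of the rest, 2 were so on both arrays (CLDN5, itself a member, and MBP) and 2 on the SAS array only (CDH5 and COL1A1). The measured probes of the list summed to 5584 in SAS and 6010 in eSAS before scaling, most of it from MBP. Of 5 mesenchymal markers, ZEB1 and ZEB2 were well above background on neither array, and CDH2 (N-cadherin) had signals of 56.6 in SAS and 147 in eSAS, a log2 ratio of 1.43. The other measured ones were lower in eSAS, VIM (vimentin) with a ratio of -0.60 and FN1 (fibronectin) with -0.24, and the list median was -0.24. The part of these marker differences in the junction values was not tested. In bulk RNA, fewer cells making an mRNA and less of it per cell cannot be told apart.

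No junction probe reached a 2-fold difference in either direction among the 52 measured, where 0.938% of all 26659 measured probes were at least 2-fold higher in eSAS and 1.26% at least 2-fold lower. At 1.5-fold, 4 junction probes were higher in eSAS: both probes of DSC3, the probe of CLDN7 and 1 of the probes of CLDN1. They made up 7.69% of the measured junction probes, against 3.09% of all measured probes. PKP1 was the 1 junction probe at least 1.5-fold lower, or 1.92%, against 4.89% of all. The count of 4 was 2 with either normexp background fit and with no background correction, and the count of 1 was 0 in those background settings and with median pixels. The count of 4 was 3 with median pixels and without array rows 450 to 510. It was 6 with quantile normalization and 7 with median centring. With probes well above background on at least 1 array it was 6, and with no filter on dim probes 9. The median log2 ratio over the 36 measured genes was 0.08, with 24 genes above 0 and 12 below, beside a median of -0.0012 over all 19467 genes measured the same way, of which 49.8% were above 0. The tight junction genes had a median of 0.23, the gap junction genes 0.06 and the desmosomal genes 0.0031.

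**Figure D1:**
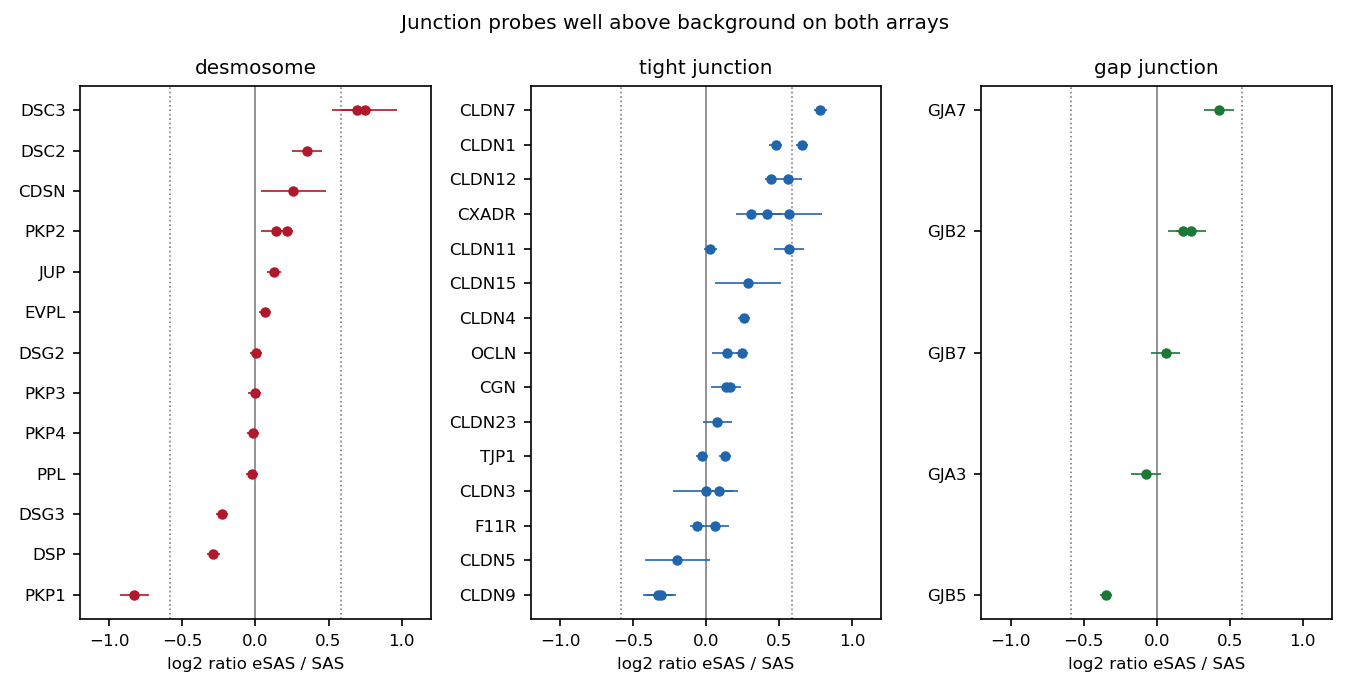
Log2 ratio of eSAS over SAS (x axis) for the probes reported singly that were well above background on both arrays, by gene (y axis) in the 3 junction types; bars are the SD of replicate spots in the probe's brightness class, and dotted lines mark 1.5-fold. Most tight junction genes lie above 0, with CLDN7 at 0.78, while the desmosomal genes run from PKP1 at -0.83 to DSC3 at 0.72 with most near 0.

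The promoters of the 4 genes with a probe at least 1.5-fold apart are shown, chosen among the genes measured on both arrays. Each run is the 250 bases before a RefSeq start of the gene in GRCh38.p14, written 5′ to 3′ on the gene's strand. CLDN7 has 2 such starts, of which the most upstream is shown, and the others have 1 each. They lie at chr3:190322447-190322696 for CLDN1, chr17:7263214-7263463 for CLDN7 and chr18:31042743-31042992 for DSC3, all on the minus strand, and at chr1:201283256-201283505 on the plus strand for PKP1. Capitals mark the GC box GGGCGG, or CCGCCC on the other strand.
CLDN1: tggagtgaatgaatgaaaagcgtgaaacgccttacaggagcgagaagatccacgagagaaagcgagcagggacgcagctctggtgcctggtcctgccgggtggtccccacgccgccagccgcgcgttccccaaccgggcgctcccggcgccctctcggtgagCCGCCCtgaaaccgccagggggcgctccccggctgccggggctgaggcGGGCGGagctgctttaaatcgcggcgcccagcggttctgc
CLDN7: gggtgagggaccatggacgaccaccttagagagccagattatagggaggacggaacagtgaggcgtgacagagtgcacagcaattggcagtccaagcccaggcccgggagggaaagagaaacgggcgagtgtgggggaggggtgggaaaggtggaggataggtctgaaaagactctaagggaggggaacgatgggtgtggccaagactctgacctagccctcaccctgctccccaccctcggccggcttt
DSC3: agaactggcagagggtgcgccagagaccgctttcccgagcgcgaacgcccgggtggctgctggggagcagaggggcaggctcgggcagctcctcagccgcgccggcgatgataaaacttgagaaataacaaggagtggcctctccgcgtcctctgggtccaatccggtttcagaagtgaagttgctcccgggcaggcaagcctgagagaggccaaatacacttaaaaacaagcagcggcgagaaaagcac
PKP1: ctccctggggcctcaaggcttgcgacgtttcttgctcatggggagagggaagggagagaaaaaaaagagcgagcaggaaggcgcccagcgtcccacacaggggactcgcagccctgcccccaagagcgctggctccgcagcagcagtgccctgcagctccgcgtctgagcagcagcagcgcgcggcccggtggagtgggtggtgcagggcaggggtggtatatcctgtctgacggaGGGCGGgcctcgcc
CLDN1 held 2 GC boxes, PKP1 held 1, and the windows of CLDN7 and DSC3 held none. CG pairs numbered 28 in CLDN1, 18 in DSC3, 17 in PKP1 and 9 in CLDN7. None of the 4 windows held the E-box CAGGTG that Snail and ZEB proteins bind, the AP-1 site TGANTCA, the grainyhead site AACCNGTT or the TATA box TATAAA on either strand. The GC box was added to the search after these gave no match. RefSeq starts were at hand for 38 of the 60 genes, with 55 starts in all. Among those 55 windows, 15 held the E-box, or 27.3%, where 17.5% of all 35116 windows did. The GC box was in 52.7% of them and in 42.6% of all windows. The AP-1 site was in 10.9% against 6.57%, the grainyhead site in 1.82% against 1.49%, and the TATA box in 1.82% against 10.7%. The windows of the members were richer in G and C, with a median of 62.8% against 58% for all windows, and the part of this in the shares was not tested. Starts of 1 gene can share bases, and a match describes the letters and not a bound site.

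Among the desmosomal cadherins, DSC3 alone had probes 1.5-fold apart, and the difference between desmocollins and desmogleins was not tested. DSC3, the desmocollin of the basal layers of stratified epithelium, has 2 probes on chromosome 18 (hg18, 26825033 to 26825092 and 26828129 to 26828188). The first had signals of 23.2 in SAS and 37.5 in eSAS, a log2 ratio of 0.75, and the second had 146 in SAS and 228 in eSAS, a ratio of 0.70. They lie in rows 47 and 491 of the array, far apart, and both were higher on the eSAS array by more than the replicate spot SD of their brightness classes, 0.22 and 0.10. Row 491 lies in a stretch of the SAS array, rows 450 to 510, that holds 183 of its 194 spots marked as non-uniform. The DSC3 spot there was not marked, and the probe of row 47 alone gave 0.75. That dimmer probe had a software error of 0.34, and a ratio of 0.34 from uncorrected median pixels. At least 1.5-fold higher were 8.62% of all measured probes with signals under 50 and 4.11% of those from 50 to 500. The size of the DSC3 difference depended on how background was treated: its mean log2 ratio was 0.72 with the processed signal, 0.46 with no background correction and 0.22 with the normexp background model fitted on all spots, the latter values being under 1.5-fold.

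DSC2, the widely expressed desmocollin, had signals of 150 in SAS and 184 in eSAS, a log2 ratio of 0.35. The desmogleins are the partners of desmocollins in the same junction. DSG3, the desmoglein of basal keratinocytes and the autoantigen of pemphigus vulgaris, had signals of 598 in SAS and 492 in eSAS, a log2 ratio of -0.23. DSG2, the desmoglein of simple epithelia and of many carcinomas, had 686 in SAS and 662 in eSAS, a ratio of 0.0031. The DSG2 difference was below the replicate spot SD, while that of DSG3 was about as large as the software's error. DSC1 and DSG1, the pair of the upper, differentiated layers, were well above background on neither array. DSG4, the desmoglein of hair and upper epidermis, had a signal of 18.5 in SAS and was not well above background in eSAS, with a bound of at least 1.08-fold lower.

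The 7 desmosomal cadherin genes stand side by side within 555 kb of chromosome 18, in the order DSC3, DSC2, DSC1, DSG1, DSG4, DSG3, DSG2 by probe position. The ratios at the desmocollin end were 0.72 for DSC3 and 0.35 for DSC2, and those at the other end were -0.23 for DSG3 and 0.0031 for DSG2. DSC1 and DSG1 between them gave no ratio.

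**Figure D2:**
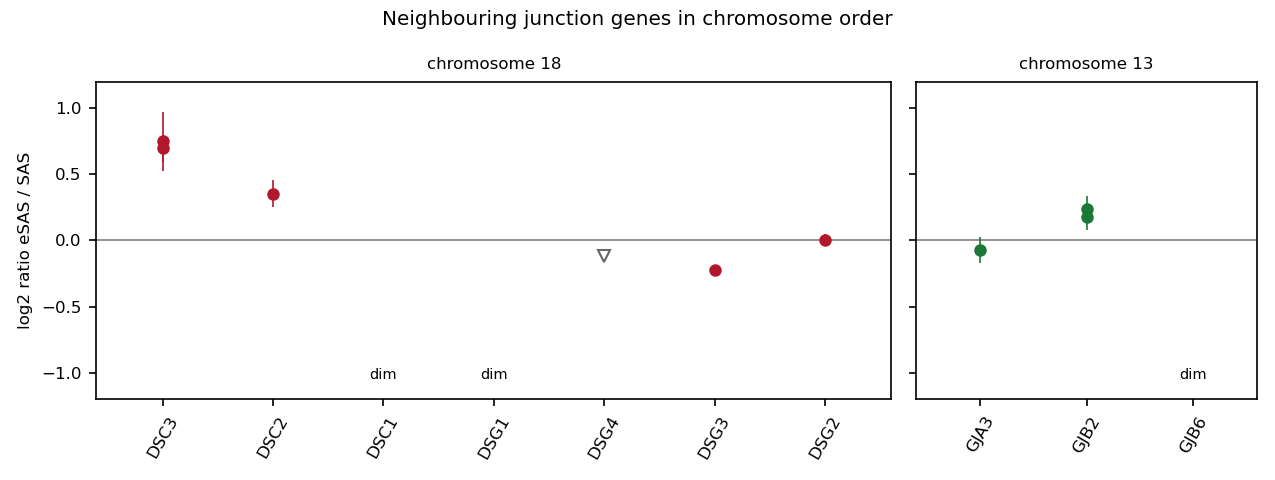
Log2 ratio of eSAS over SAS (y axis) of junction genes that lie next to each other, in chromosome order (x axis); filled points are probes with the replicate spot SD as bars, the open triangle is the bound of a probe well above background in SAS only, and "dim" marks genes well above background on neither array. DSC3 and DSC2 lie above 0 on chromosome 18, as does GJB2 on chromosome 13.

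The armadillo proteins of the desmosomal plaque were near 0 apart from PKP1. PKP1, the plakophilin that stabilises desmosomes in stratified epithelium, is probed on chromosome 1 (hg18, 199564539 to 199564598). It had signals of 110 in SAS and 59.6 in eSAS, a 1.78-fold lower level in eSAS and a log2 ratio of -0.83. Without background correction the ratio was -0.49, with the median pixel of the spot -0.51 and with normexp fitted on all spots -0.25, so that PKP1 kept its direction but was under 1.5-fold in these. Among all measured probes with signals from 50 to 500, where PKP1 lies, 6.61% were at least 1.5-fold lower.

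The other plakophilins differed little. PKP3, the plakophilin found in most epithelial layers, had signals of 27933 in SAS and 26791 in eSAS, a log2 ratio of -0.0059. PKP2, found in simple epithelia and heart muscle, had ratios of 0.22 (1378 in SAS, 1541 in eSAS) and 0.14 (154 in SAS, 164 in eSAS) on its 2 probes. PKP4 had a ratio of -0.02. JUP (plakoglobin), which binds the tails of the desmosomal cadherins and can also replace beta-catenin at adherens junctions, had 18382 in SAS and 19340 in eSAS, a ratio of 0.13.

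The plakins connect the plaque to keratin. DSP (desmoplakin), the plakin every desmosome needs, had signals of 14135 in SAS and 11145 in eSAS, a log2 ratio of -0.29. PPL (periplakin), a cornified envelope precursor, had 1634 in SAS and 1549 in eSAS, a ratio of -0.02, and EVPL (envoplakin), its partner, had 2652 in SAS and 2675 in eSAS, a ratio of 0.07. Periplakin and envoplakin were thus nearly level on both arrays. DSP was lower in eSAS by more than the replicate spot SD of 0.05 and by little more than the software's error of 0.20.

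CDSN (corneodesmosin), an adhesive protein of the outermost cell layers, had signals of 40.9 in SAS and 47.1 in eSAS on 1 probe, a log2 ratio of 0.26, and its other probe was well above background on neither array. PERP, a tetraspan protein of desmosomes under the control of p53 and p63, had signals of 16622 in SAS and 23962 in eSAS, a ratio of 0.58. Its SAS spot was marked as non-uniform, with a pixel SD of 0.763 of the mean, a mean pixel of 15415 and a median pixel of 17706. From the median pixels the ratio was 0.36, so PERP is not counted with the measured genes. It lay in row 482, within the stretch of marked spots, where 9 of the 81 junction probes had a spot.

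The claudins are the membrane proteins that form the tight junction strands. Of 20 claudin genes 10 were measured, 8 with a mean ratio above 0 and 2 below, with a median of 0.27. CLDN7, a claudin of many epithelia, is matched to 165 bases of chromosome 17 (hg18, 7104546 to 7104710), more than the 60 bases of a probe. It had signals of 4416 in SAS and 7310 in eSAS, 1.72-fold higher in eSAS, a log2 ratio of 0.78. This is well outside the replicate spot SD of 0.05 and above the software's error of 0.20. Among all measured probes with signals over 5000, as the mean of this probe was, 0.644% were at least 1.5-fold higher in eSAS. The CLDN7 ratio stayed between 0.73 and 0.82 where scaling, background treatment or the pixel summary was changed. The settings on filters, probe choice and the deposited table could not move it, because its 1 probe was unmarked and measured on both arrays.

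CLDN1, the claudin on which the barrier of the epidermis depends, has 2 probes on chromosome 3 (hg18, 191506695 to 191506754 and 191510659 to 191510718). The first had signals of 10142 in SAS and 13587 in eSAS, a log2 ratio of 0.48, and the second had 4009 in SAS and 6086 in eSAS, a ratio of 0.66. Both were higher in eSAS by more than the replicate spot SD, and 1 of them passed 1.5-fold, as 1.37% of all measured probes with signals from 500 to 5000 did. The mean over both was 0.57 and stayed between 0.48 and 0.60 under the other settings. CLDN4, a claudin that lowers the passage of sodium, had 995 in SAS and 1146 in eSAS, a ratio of 0.26.

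None of the remaining measured claudins had a probe 1.5-fold apart. CLDN12 had log2 ratios of 0.44 and 0.56 on its 2 probes. CLDN11, known from myelin and the testis, gave 0.03 on a probe with signals of 2820 in SAS and 2772 in eSAS and 0.57 on a probe with 121 in SAS and 173 in eSAS. That gap of 0.54 was the widest between probes of any junction gene, and the 2 probes do not settle whether CLDN11 differed. CLDN15 had a ratio of 0.29, CLDN23 0.08, and the probes of CLDN3, a claudin of simple epithelia, 0.09 and -0.0031. CLDN9 was lower in eSAS on both probes, with ratios of -0.31 and -0.33. CLDN5, the claudin of endothelium, had a ratio of -0.20 on a probe with signals of 30.0 in SAS and 25.2 in eSAS, within the replicate spot SD of 0.22 for signals this low, and its other probe was well above background on neither array.

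Some claudins were well above background on 1 array only, so that their difference has only a lower bound. The bound sets the brighter signal against the lowest signal marked well above background on the other array, 12.8 in SAS and 15.2 in eSAS. Where the dim signal itself is higher than that limit, it is used instead. Spot error is not part of the bound. CLDN6, known from embryonic epithelia, was not well above background in SAS at 10.2 and had a signal of 67.7 in eSAS, at least 5.48-fold higher. The pixels of its eSAS spot were uneven, with an SD of 0.353 of the mean, a mean pixel of 124 and a median pixel of 111, where the measured junction probes on that array had an SD of 0.0471 to 0.242 of the mean. From uncorrected median pixels its log2 ratio was 0.97. CLDN6 is the neighbour of CLDN9 on chromosome 16, within 1.68 kb by probe position (hg18, 3003637 to 3005315), and CLDN9 was lower in eSAS.

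CLDN16, a claudin of the kidney, was not well above background in SAS at 12.3 and had 21.8 in eSAS, at least 1.77-fold higher. CLDN18, the claudin of stomach and lung, was not well above background in SAS at 2.68 and had 16.4 in eSAS, at least 1.33-fold higher. That SAS value had been replaced by the software, and the eSAS spot was uneven, with a pixel SD of 0.380 of the mean. CLDN17 had 29.8 in SAS and was not well above background in eSAS at 3.59, also a replaced value, at least 1.89-fold lower. All of these but CLDN6 had signals under 30 on both arrays, close to the limit of detection. CLDN2, CLDN8, CLDN10, CLDN14, CLDN19 and CLDN22 were well above background on neither array.

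**Figure D3:**
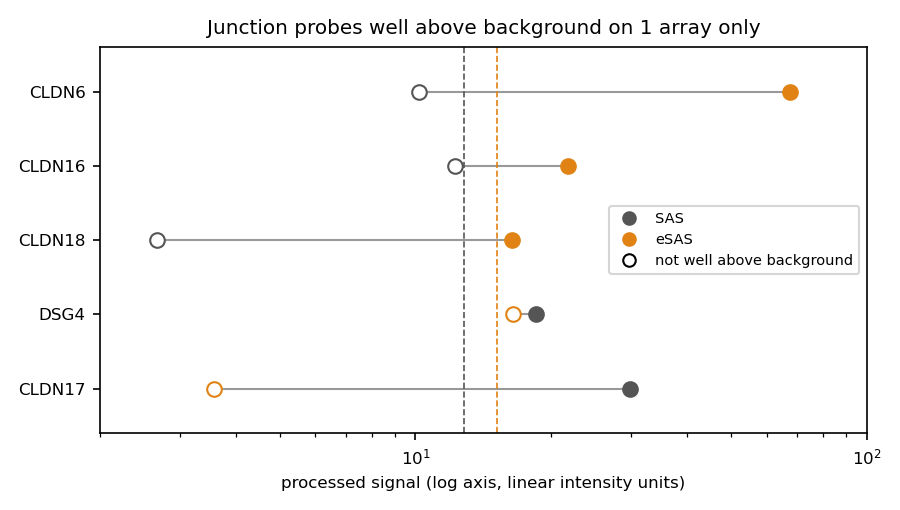
Processed signal (x axis, log scale, linear intensity units) on the SAS array (grey) and the eSAS array (orange) of 5 junction probes well above background on 1 array only (y axis); open circles are signals not well above background and dashed lines are the lowest signal marked well above background on each array. CLDN6 stands apart at 67.7 in eSAS, and the other probes shown stay below 30 on both arrays.

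The other membrane proteins of the tight junction were level or somewhat higher in eSAS. CXADR, the coxsackievirus and adenovirus receptor, an adhesion protein of the immunoglobulin family, had log2 ratios of 0.31 (272 in SAS, 324 in eSAS), 0.42 (134 in SAS, 172 in eSAS) and 0.57 (18 in SAS, 25.7 in eSAS) on its 3 probes. OCLN (occludin), a membrane protein of the strands, had ratios of 0.24 (518 in SAS, 591 in eSAS) and 0.14 (234 in SAS, 249 in eSAS). F11R (JAM-A), which helps to set up cell polarity, had -0.06 (21069 in SAS, 19420 in eSAS) and 0.06 (277 in SAS, 278 in eSAS). All 3 CXADR probes and both OCLN probes were above 0, and the F11R probes lay on either side of it.

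The plaque proteins hold the membrane proteins to the cytoskeleton. TJP1 (ZO-1), the scaffold to which claudin tails bind, had log2 ratios of 0.13 (1917 in SAS, 2016 in eSAS) and -0.03 (3372 in SAS, 3183 in eSAS). CGN (cingulin), which binds ZO-1 and actomyosin, had 0.17 (895 in SAS, 967 in eSAS) and 0.14 (157 in SAS, 166 in eSAS). Both genes had a mean ratio above 0, neither reached 1.5-fold, and TJP3 (ZO-3) was well above background on neither array.

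**Figure D4:**
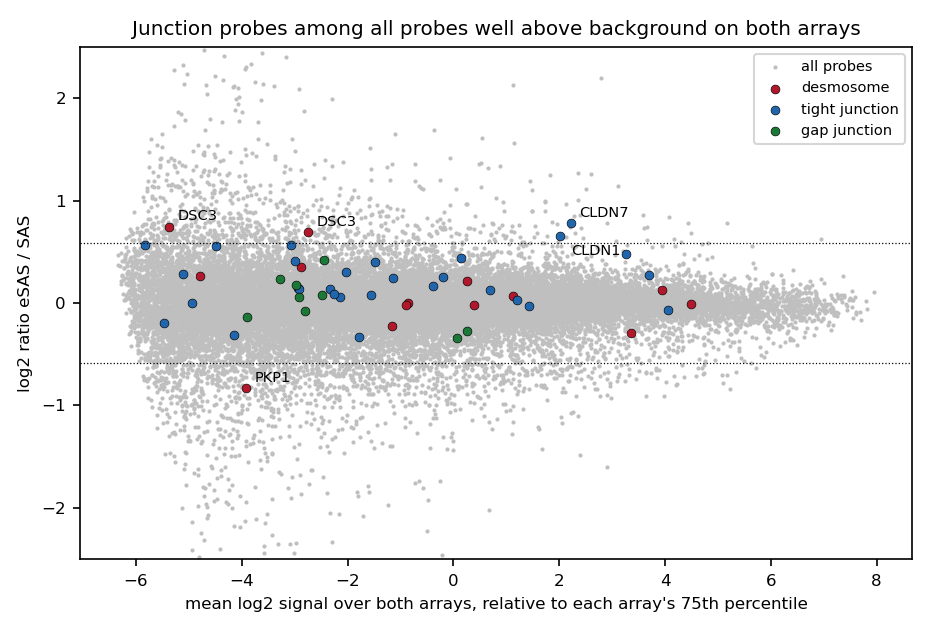
Log2 ratio of eSAS over SAS (y axis) against the mean log2 signal relative to the 75th percentile of each array (x axis) for all 26659 probes well above background on both arrays (grey) and the junction probes (coloured); dotted lines mark 1.5-fold, and 35 grey probes lie beyond the y axis. CLDN7 and CLDN1 lie near the upper edge of probes of their brightness, and DSC3 and PKP1 lie where the grey cloud is wider.

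Tight junction genes as a group had the highest median of the 3 junction types. It was 0.23 with 13 of 16 genes above 0, and between 0.094 and 0.28 under the 14 other settings. The 0.28 came with no filter on dim probes, which takes in signals that the software had replaced. The next highest was 0.27, with probes well above background on at least 1 array. Probes of 1 gene mostly pointed the same way. Of 15 junction genes with several measured probes, 12 had all of them on the same side of 0, and the gap between the highest and lowest probe of a gene was 0.02 to 0.54, with a median of 0.12.

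Connexins were mostly weak. GJA1 (connexin 43), the most widespread connexin and one found in keratinocytes, was well above background on neither array with either of its 2 probes. GJB6 (connexin 30), a partner of connexin 26 in skin and the inner ear, was not either. The same held for GJB1, GJA4, GJA5, GJA9 and GJA10. In all, 22 junction probes were well above background on neither array, 11 of them from connexins, with signals of 2.62 to 12.4 in SAS and 3.10 to 6.72 in eSAS. For 13 of these the software had replaced the signal on both arrays, which gives a log2 ratio of 0.26 to 0.30 whatever the gene, so they hold no level.

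GJB2 (connexin 26), the connexin whose loss causes hereditary deafness, had 1 of its probes printed 10 times on each array, so that its spot error could be measured directly. Its signals in SAS ran from 134 through a median of 149 to 164, and in eSAS from 149 through a median of 163 to 182. The log2 ratio was 0.18 ± 0.09 (SD, n = 10 spots of 1 array pair), with a range of 0.04 to 0.29, and eSAS was higher at 10 of 10 positions after scaling. The other GJB2 probe had 118 in SAS and 134 in eSAS, a ratio of 0.23. The difference was thus repeated across the surface of the arrays after scaling, but the spots shared 1 scaling and all measured the same 2 RNA samples. Before scaling, the spot of row 83 was lower in eSAS (155 in SAS, 154 in eSAS). The ratio of 0.18 was also below the software's error of 0.21 for this probe.

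**Figure D5:**
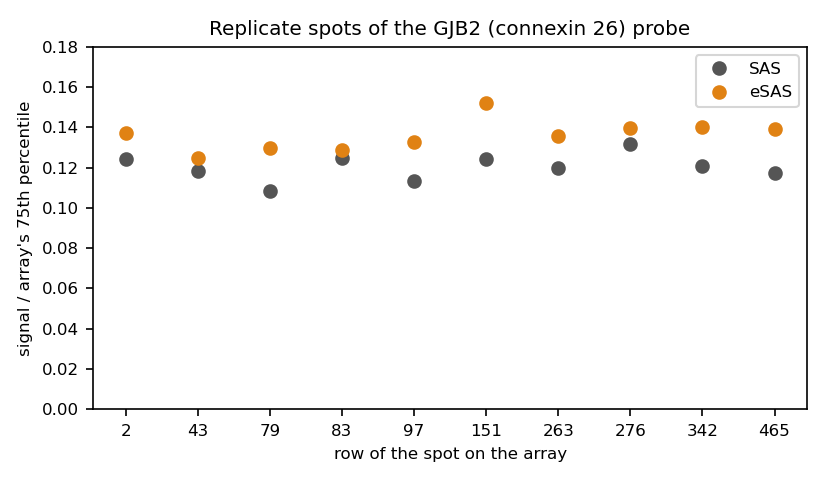
Signal divided by the 75th percentile of the array (y axis) at the 10 positions, given by array row (x axis), of the GJB2 probe on the SAS array (grey) and the eSAS array (orange). The eSAS point lies above the SAS point at 10 of 10 positions, by a log2 ratio of 0.04 to 0.29.

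GJB5, a connexin found in skin, was lower in eSAS. It had signals of 1459 in SAS and 1106 in eSAS, a log2 ratio of -0.35, which is beyond the replicate spot SD of 0.04 and under 1.5-fold. On chromosome 13, GJB2 was above 0 while its neighbour GJA3 had a ratio of -0.07 on its measured probe.

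Among the other connexins, GJA7 (connexin 45) had signals of 198 in SAS and 256 in eSAS, a log2 ratio of 0.42. GJB7 had a ratio of 0.06. The 7 measured connexin genes had 4 above 0 and 3 below, and none of their 9 measured probes was 1.5-fold apart.

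The lists of genes that work beside these junctions had medians below 0. Of 11 adherens junction genes 10 were measured, with a median log2 ratio of -0.12, 1 above 0 and none 1.5-fold apart. The lowest was CDH1 (E-cadherin), the adhesion protein of epithelial cells, with 5289 in SAS and 3652 in eSAS, a ratio of -0.48. Of 15 other tight junction and polarity genes 12 were measured, with a median of -0.07 and 5 above 0. JAM3, a relative of F11R, had 54.0 in SAS and 29.0 in eSAS, a ratio of -0.84, and CGNL1 (paracingulin), a relative of cingulin, had 297 in SAS and 177 in eSAS, a ratio of -0.69. None of the 12 was 1.5-fold higher. MAGI1 (10.4 in SAS, 28.5 in eSAS) and ESAM (11.8 in SAS, 21.2 in eSAS) were well above background in eSAS only, on 1 probe each. Their bounds were at least 2.31-fold and at least 1.71-fold higher. These signals were close to the limit of detection, and the other probe of each gene was well above background on neither array. Of 7 other gap junction genes, pannexins included, 4 were measured, with a median of -0.11. The difference between these lists and the members was not tested.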

How the data were processed

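Per the labels, total RNA was labelled with Cy3 and each array was read with Agilent Feature Extraction 10.7.3.1. The authors deposited the output of this software for both arrays, with linear intensity values per spot: a processed signal corrected for background and spatial trends, mean and median pixel intensity, pixel SD, local background, error estimates and other marks (non-uniform spot, outlier, well above background). The deposited table of processed values for the series was equal to the processed signal at every spot. No scaling between the arrays had been applied to these values.

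Each processed signal was divided by the 75th percentile over the non-control spots of its array and taken to log2 with Python 3.11.15 and pandas 2.3.3. Control spots and marked spots were left out, spots of a probe were averaged, and a probe counted as well above background where over 50 percent of its spots were. A gene's ratio is the mean over its probes well above background on both arrays. The members, gene lists and thresholds (2-fold and 1.5-fold) were chosen with earlier results of these data known. Results of some single members are not reported here, although the counts and medians include them. Any other member may be named; members 1.5-fold apart, members with a bound of that size and the main junction genes of keratinocytes are given with the signals of both arrays. Of 81 member probes, 75 were matched to a current symbol through their accession and 6 by symbol. Positions of probes are given in hg18 as the array files hold them, and the exon or UTR a probe lies in was not analysed here. Promoters come from RefSeq (GRCh38.p14), a different build.

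Alternatives covered scaling, background, filters and the choice of probe (normexp with an offset of 50 and quantile normalization in limma 3.58.1). The procedure was run on a simulated eSAS array of 27938 probes set against the SAS array. All of 200 probes changed by 2.5-fold or 1.8-fold were found at 1.5-fold, and 0 others. This checks the computing steps only and gives no error rate for the real pair. There, 3.09% of all measured probes were at least 1.5-fold higher and 4.89% lower. The precision is limited by the number of arrays, which was 1 per population, and no p-value was computed.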

Additional observations from a re-analysis of the deposited data

How the results depend on the processing

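The 14 other settings did not turn the direction of CLDN1, CLDN7, DSC3 or PKP1, nor the sign of the tight junction median. Those on filters, probe choice and the deposited table could not move CLDN7 or PKP1, which have 1 measured probe each. With median centring 7 probes were at least 1.5-fold higher instead of 4, and with quantile normalization 6. With median pixels and without rows 450 to 510 that count was 3. With normexp fitted on all spots the tight junction median was 0.094, and with normexp fitted without spots of marked local background it was 0.14; either way 2 probes were 1.5-fold higher and 0 lower. With no background correction 2 were higher and 0 lower, and with median pixels 0 were lower. With probes well above background on at least 1 array, taken at their bounds, 1 probe (CLDN6) was 2-fold higher. In that setting 6 were 1.5-fold higher and 2 were 1.5-fold lower. With no filter on dim probes the gap junction median was 0.14 and the tight junction median 0.28. At 2-fold, 2 probes were higher and 3 lower, and at 1.5-fold, 9 were higher and 6 lower. These medians and counts include signals replaced by the software. For the counts under other background treatments the cause was not tested.

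The desmosomal median ran from -0.05 with no scaling to 0.07 with no background correction, and the gap junction median from -0.0063 to 0.14, so neither has a settled sign. With no scaling the median of all measured probes was itself -0.06. Less the median of all measured probes in each setting, the desmosomal median ran from 0.0025 to 0.055. The gap junction median ran from -0.0023 to 0.14 on that scale. With no scaling 3 of the 36 genes changed sign, and with median centring 4. Without rows 450 to 510 the tight junction median was 0.26, the gap junction median -0.0063 and the desmosomal median 0.0031. No setting moved the median of all probes well above background on both arrays by over 0.1. For the settings that take in dim probes, that median was not computed over the probes they add. DSC3 and PKP1, with signals under 500, moved more than CLDN1 and CLDN7: DSC3 ran from 0.22 to 0.76 and PKP1 from -0.88 to -0.25. No paired analysis was possible because each population was measured on a single array, and for the same reason no array could be left out.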
